A study of Mus musculus with 6 samples.

Results

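The 9 genes described here encode receptors through which circulating and local vasoactive signals act on the vessel wall, together with 1 ligand: the adrenoceptors Adra1b, Adra1d and Adra2a, the angiotensin receptor Agtr1a, the endothelin receptors Ednra and Ednrb with the peptide precursor Edn1, and the natriuretic peptide receptors Npr2 and Npr3. They were taken by gene symbol from a table of 25683 genes, and all 9 were found. RNA was measured in 3 libraries of Nt5e knock-out cells (libraries 1 to 3) and 3 libraries of wild-type cells (libraries 4 to 6), all labelled as a primary line of mouse aortic vascular smooth muscle cells. Nt5e encodes CD73, the surface enzyme that makes adenosine from AMP, and the series title places the study in adenosine signalling, TGF-beta 2, elastin and contraction. Both genotypes had been grown at 10% serum and then held at 0.5% serum for 48 h, and no added agent is named. The labels say neither how the allele was made nor whether each library is its own animal or culture. The titles give libraries 1 and 2 the stem KO2, library 3 KO5, library 4 WT10 and libraries 5 and 6 WT11, so 2 of the 3 libraries of each genotype share a stem. They also carry a p number and end in a number, which is 1 for libraries 1 and 5 and 2 for the others, and do not say what these mean. The p-values therefore reflect only how far these samples spread, and that spread may be technical.

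As background, alpha-1 adrenoceptors, the angiotensin AT1 receptor and the endothelin A receptor couple to Gq and phospholipase C, raise cytosolic calcium and contract vascular smooth muscle. Alpha-2 adrenoceptors couple to Gi and lower cyclic AMP, and the endothelin B receptor both signals and clears endothelin. Natriuretic peptides act the other way on tone: Npr1 and Npr2 are receptor guanylate cyclases that make cyclic GMP, whereas Npr3 removes the peptides from the circulation.

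The libraries held 19919095 to 22743666 exon reads in the knock-out and 20813477 to 23669252 in the wild type. They were not equally spread. Knock-out libraries 2 and 3 differed by a coefficient of variation of 3.66% beyond counting noise and wild-type libraries 4 and 6 by 3.49%, whereas knock-out library 1 differed from libraries 2 and 3 by 44.6% and 45.1%, about as much as from the wild-type libraries (43.7% to 48.0%), and wild-type library 5 from libraries 4 and 6 by 14.97% and 15.7%. For the members and the pathway genes named with them, calls lost without library 1 or 5 are stated, and a called fold change that moved by over 1.5 times is also given without that library. Nt5e itself had 22, 1 and 2 reads in the knock-out libraries, against 615, 688 and 486 in the wild-type libraries (log2 fold change -6.06, and -8.34 without library 1). Of the 10 smooth muscle markers, 6 passed the count filter. Acta2, smooth muscle actin, had 1705, 11583 and 9859 reads in the knock-out libraries and 1553, 1263 and 2180 in the wild-type libraries. The genotypes overlapped and Acta2 was not called (edgeR adjusted p = 0.0633). Smtn, smoothelin, had 1898, 2292 and 1960 reads in knock-out cells and 1431, 1548 and 1605 in wild-type cells, and was called higher (edgeR adjusted p = 0.0296). Cnn1 was called lower, with 14, 5 and 5 reads in knock-out cells and 38, 32 and 69 in wild-type cells (log2 fold change -2.45, edgeR adjusted p = 0.0246). Desmin (Des, up to 3 reads in a library) and myocardin (Myocd, up to 4) were at or near 0 in both genotypes, and Myh11, the smooth muscle myosin gene, had 5, 54 and 67 reads in knock-out cells against 3, 3 and 1 in wild-type cells. Des, Myocd and Myh11 did not pass the count filter. Cnn1, Des, Myocd and Myh11 are named after their values were seen.

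Regions around the annotated transcription starts are shown for the genes that changed most, because the direction of the change differed among them. Each window runs from 250 bases before to 50 bases after a RefSeq start (GRCm38.p6), 5′ to 3′ on the strand of the gene, with motif matches in capitals. The windows are Adra1b at chr11:43901188-43901487 (minus strand) and chr11:43836440-43836739 (minus), Adra2a at chr19:54045009-54045308 (plus), Ednrb at chr14:103843652-103843951 (minus) and Npr2 at chr4:43631685-43631984 (plus).
Adra1b, distal start: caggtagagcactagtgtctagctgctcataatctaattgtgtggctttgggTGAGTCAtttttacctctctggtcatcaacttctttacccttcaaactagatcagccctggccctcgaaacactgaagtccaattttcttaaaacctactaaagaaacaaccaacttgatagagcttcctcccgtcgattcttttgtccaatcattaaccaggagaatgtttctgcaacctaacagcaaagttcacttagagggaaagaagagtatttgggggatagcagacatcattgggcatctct
Adra1b, internal start: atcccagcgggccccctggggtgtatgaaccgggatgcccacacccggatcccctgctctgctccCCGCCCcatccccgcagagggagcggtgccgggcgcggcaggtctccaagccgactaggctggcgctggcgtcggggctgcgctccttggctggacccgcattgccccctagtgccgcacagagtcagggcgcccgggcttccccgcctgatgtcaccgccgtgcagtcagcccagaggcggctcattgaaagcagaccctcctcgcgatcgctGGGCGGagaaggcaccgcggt
Adra2a: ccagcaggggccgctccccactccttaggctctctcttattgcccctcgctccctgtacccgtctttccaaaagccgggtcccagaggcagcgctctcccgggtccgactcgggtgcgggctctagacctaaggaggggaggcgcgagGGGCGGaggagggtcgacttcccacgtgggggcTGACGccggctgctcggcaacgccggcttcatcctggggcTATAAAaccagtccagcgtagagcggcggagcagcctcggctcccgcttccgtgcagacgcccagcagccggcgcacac
Ednrb: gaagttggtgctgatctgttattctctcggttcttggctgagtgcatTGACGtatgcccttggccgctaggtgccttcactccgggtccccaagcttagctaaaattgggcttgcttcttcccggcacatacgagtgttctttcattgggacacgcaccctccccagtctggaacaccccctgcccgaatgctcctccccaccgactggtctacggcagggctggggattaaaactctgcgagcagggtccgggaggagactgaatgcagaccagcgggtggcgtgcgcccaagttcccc
Npr2: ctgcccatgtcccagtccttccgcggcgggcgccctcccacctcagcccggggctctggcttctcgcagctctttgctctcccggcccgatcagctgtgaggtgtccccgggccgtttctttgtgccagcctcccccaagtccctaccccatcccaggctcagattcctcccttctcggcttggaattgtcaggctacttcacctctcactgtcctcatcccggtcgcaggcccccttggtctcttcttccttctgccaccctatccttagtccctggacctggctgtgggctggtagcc

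The motifs searched on both strands were the TATA box (TATAAA), the GC box (GGGCGG), the cyclic AMP response element core (TGACG), the AP-1 site (TGANTCA, which reads the same on either strand) and the CArG box of serum response factor. With bases numbered from the start site as 0, the distal Adra1b window held an AP-1 match from -198 to -192, and the internal one held GC boxes from -185 to -180 and from 29 to 34. The Adra2a window held a GC box from -102 to -97, a TGACG core from -69 to -65 and a TATA box from -29 to -24. The Ednrb window held a TGACG core from -203 to -199, and the Npr2 window held none of the 5 motifs. No match overlapped a match of another motif. Of 32851 windows of 300 bases in the same table, 13.6% held the TATA box, 35.7% the GC box, 20.8% the TGACG core, 7.8% the AP-1 site and 1.6% the CArG box. The G and C content was 42.3% and 71.3% in the distal and internal Adra1b windows, 68.7% for Adra2a, 58.7% for Ednrb and 64.0% for Npr2, against a median of 52.7%. These starts lie 27 and 64721 bases from the start of Adra1b in the deposited table, 1108 bases from that of Adra2a, 701 from that of Ednrb and 0 from that of Npr2. The RNA data do not show which start was used.

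Across the 9 genes the knock-out had more RNA of both alpha-1 adrenoceptors, of Npr2 and, by a small margin, of Edn1, and less of Adra2a and Ednrb. Ednra and Npr3 did not pass the test, and Agtr1a had too few reads to be tested. Genotypes were compared with edgeR's quasi-likelihood F test on exon reads, with p-values adjusted by the Benjamini-Hochberg method over all 12660 genes tested and a threshold of 0.05. Of the 8 tested members, 4 were called higher, against 14.1% of all tested genes, and 2 lower, against 13.7%, with 27.8% of all genes called in either direction. The ranges of the genotypes did not overlap for 6 of the 8, against 49.7% of all tested genes. The median log2 fold change, knock-out over wild type, was 0.42 over the 8 genes and 0.02 over all tested genes. Levels are given as CPM, counts scaled to a common library size after TMM adjustment. In RNA from whole cultures, fewer cells of a type and less RNA per cell cannot be told apart.

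**Figure D1:**
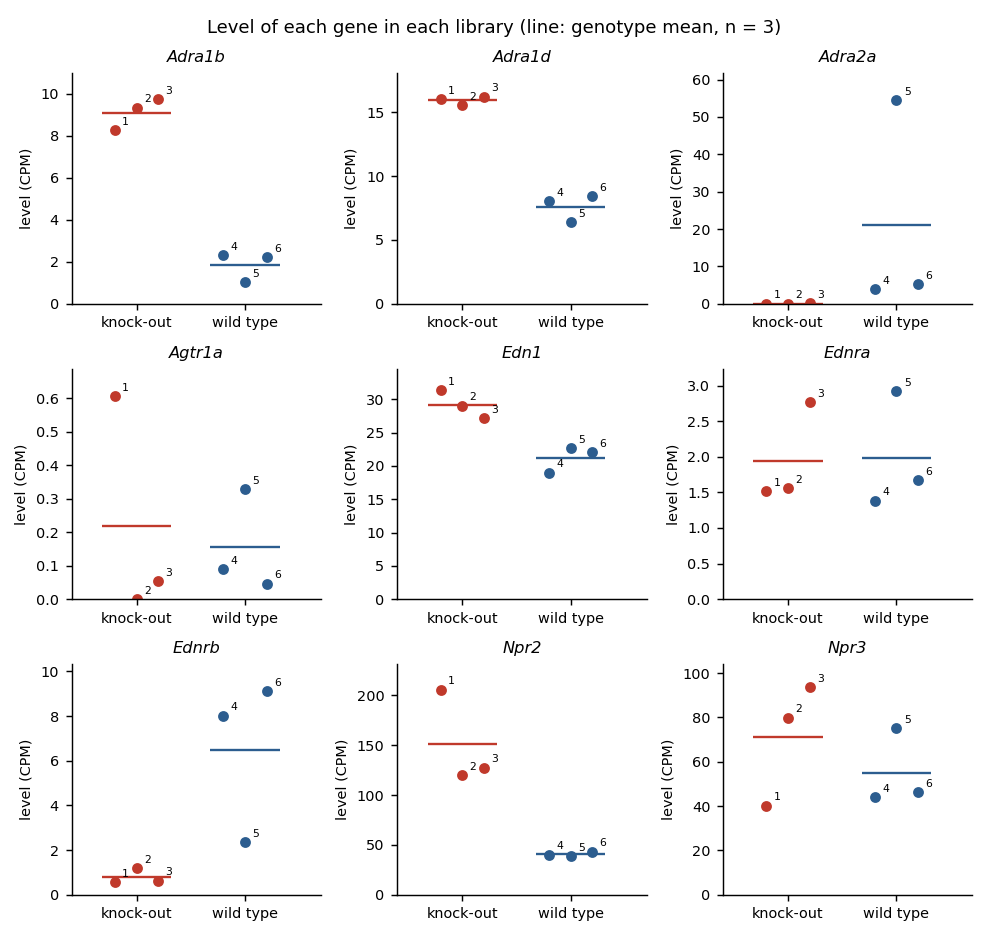
Level of each of the 9 genes in each library in CPM, with knock-out libraries 1 to 3 left of wild-type libraries 4 to 6 and a line at each genotype mean. Adra2a reached 54.4 CPM in wild-type library 5 and stayed under 0.06 CPM in each knock-out library, and the genotypes overlap for Agtr1a, Ednra and Npr3.

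Adra1b (ENSMUSG00000050541, chromosome 11, 43774606 to 43901210, minus strand, GRCm38) encodes the alpha-1B adrenoceptor. It had 8.27, 9.33 and 9.74 CPM across knock-out libraries 1, 2 and 3, against 2.32, 1.03 and 2.22 CPM in wild-type libraries 4, 5 and 6. Each knock-out library lay above each wild-type library, with library 1 close to libraries 2 and 3. The means were 9.11 ± 0.759 CPM in the knock-out and 1.86 ± 0.719 CPM in the wild type (SD, n = 3 each), a 4.90-fold rise (log2 fold change 2.29 ± 0.34 SE, edgeR adjusted p = 0.00716).

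Adra1d (ENSMUSG00000027335, chromosome 2, 131545850 to 131562283, minus strand) encodes the alpha-1D adrenoceptor, a prominent alpha-1 subtype of rodent aorta. It had 16.0, 15.6 and 16.2 CPM in the knock-out libraries, against 8.03, 6.37 and 8.43 CPM in the wild-type libraries, again with no overlap. The knock-out mean was 15.9 ± 0.344 CPM and the wild-type mean 7.61 ± 1.09 CPM, a 2.09-fold rise (log2 fold change 1.07 ± 0.14, edgeR adjusted p = 0.00559). Per exon length, in the authors' RPKM, Adra1d exceeded Adra1b 3.45, 2.97 and 2.97 times in the knock-out libraries and 6.17, 11.04 and 6.75 times in the wild-type libraries. Adra1d was thus the higher of the pair in all 6 libraries, by a smaller ratio in each knock-out library. The third alpha-1 gene, Adra1a, had 1 read in all, in wild-type library 5.

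Adra2a (ENSMUSG00000033717, chromosome 19, 54044151 to 54048982, plus strand), the alpha-2A adrenoceptor gene, had 1 read in each knock-out library, against 88, 1324 and 113 reads in wild-type libraries 4, 5 and 6. Wild-type library 5 held most of the reads, at 54.4 CPM beside 3.92 and 5.24 CPM in libraries 4 and 6. From 3 reads in the knock-out and 1525 in the wild type, the level was 470 times lower in the knock-out (95% counting interval 160 to 2279, which covers counting error only). Without library 5 the ratio was 96.1 (32.4 to 470), from 3 and 201 reads. The fitted log2 fold change was -8.64 ± 1.68 (edgeR adjusted p = 0.0157), and -6.42 without library 5 (adjusted p = 0.00422). The call was lost without knock-out library 2 (0.0686) or 3 (0.0652) and in limma-voom (0.218). Reads across exon junctions numbered 0 in the knock-out and 62 in the wild type. The other alpha-2 genes, Adra2b and Adra2c, had 0 reads in every library.

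Of the beta adrenoceptor genes, Adrb3 was tested and not called (log2 fold change 0.91 ± 1.09, edgeR adjusted p = 0.559). Adrb1 had 16, 0 and 0 reads across the knock-out libraries, 1, 2 and 3 across the wild type, and was not tested.

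Agtr1a (ENSMUSG00000049115, chromosome 13, 30336441 to 30382867, plus strand), the main AT1 receptor gene of rodent vessels, was barely detected. It had 14, 0 and 1 reads in the knock-out libraries and 2, 8 and 1 in the wild-type libraries, below the count filter. Most of these reads came from knock-out library 1 and wild-type library 5, the libraries that stood apart, and a difference between genotypes was not detectable at this depth. Of 7 other renin-angiotensin genes tested, 2 fell, Ace and Enpep. Ace, whose product makes angiotensin II, fell, with 97, 31 and 16 reads in the knock-out libraries against 251, 330 and 325 in the wild-type libraries (log2 fold change -2.60 ± 0.58, edgeR adjusted p = 0.0242). Its call was lost without library 2, 4, 5 or 6 (adjusted p between 0.0759 and 0.0842), and its fold change was -3.51 without library 1. Enpep, an aminopeptidase that shortens angiotensin II and is named after its values were seen, had 0 reads in each knock-out library and 51, 50 and 54 in the wild-type libraries, at least 47.7-fold lower in the knock-out with a floor of 3 reads over the group.

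Edn1 (ENSMUSG00000021367, chromosome 13, 42301476 to 42307990, plus strand) encodes preproendothelin-1, the precursor of the vasoconstrictor endothelin-1. It had 31.4, 29.0 and 27.2 CPM in the knock-out libraries, against 19.0, 22.7 and 22.1 CPM in the wild-type libraries. The groups did not overlap, but the step between them was small beside those of the other called members. The means were 29.2 ± 2.10 CPM in the knock-out and 21.2 ± 1.99 CPM in the wild type, a 1.38-fold rise (log2 fold change 0.46 ± 0.11, edgeR adjusted p = 0.0269). The call was lost without any 1 of libraries 2 to 6 (adjusted p 0.0589 to 0.10) and with total counts as the scaling (0.0744), and with libraries of one title stem summed (0.0648). Edn1 is chiefly an endothelial product in the vessel. Of 10 endothelial markers, 1 passed the count filter: Kdr, a VEGF receptor gene, rose with 47, 138 and 111 reads in the knock-out libraries against 18, 8 and 10 in the wild-type libraries (3.17 ± 0.59, adjusted p = 0.0138). Cldn5 and Tie1 had 0 reads in every library, and the markers summed to 3.33 to 7.12 CPM in the knock-out and 1.34 to 3.37 CPM in the wild type. The part of endothelial cells in the level of Edn1 was not tested.

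The endothelin receptors differed in their readout. Ednrb (ENSMUSG00000022122, chromosome 14, 103814625 to 103844402, minus strand), the endothelin B receptor gene, had 0.563, 1.18 and 0.638 CPM in the knock-out libraries, against 8.03, 2.34 and 9.13 CPM in the wild-type libraries. Wild-type library 5 was the lowest of its group and still above each knock-out library. The means were 0.793 ± 0.336 CPM in the knock-out and 6.498 ± 3.64 CPM in the wild type, an 8.14-fold lower level in the knock-out (log2 fold change -3.02 ± 0.62, edgeR adjusted p = 0.0182). The call was lost without library 3, 4 or 6 (adjusted p 0.068 to 0.0729) and in limma-voom (0.078). Junction reads numbered 10 in the knock-out and 97 in the wild type.

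Ednra (ENSMUSG00000031616, chromosome 8, 77663031 to 77724464, minus strand), the endothelin A receptor gene, was low and spread over the same range in both genotypes. It had 1.52, 1.56 and 2.77 CPM in the knock-out libraries and 1.38, 2.92 and 1.67 CPM in the wild-type libraries. The means were 1.95 ± 0.711 CPM in the knock-out and 1.99 ± 0.817 CPM in the wild type, and no difference was called (log2 fold change -0.04 ± 0.42, edgeR adjusted p = 0.955). The sign of this value changed with the libraries used, from -0.37 without library 3 to 0.35 without library 5. Per exon length, Ednra exceeded Ednrb 3.17, 1.55 and 5.10 times in the knock-out libraries, and stood at 0.203, 1.47 and 0.215 times Ednrb in wild-type libraries 4, 5 and 6. The order of the 2 receptors was therefore reversed in wild-type libraries 4 and 6 but not in library 5, whose ratio lay just under the lowest knock-out ratio.

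The endothelin-converting enzymes, which cleave big endothelin to the active peptide, both rose. Ece1 had 2744, 3626 and 2986 reads in the knock-out libraries against 1691, 1732 and 1626 in the wild-type libraries (log2 fold change 1.02 ± 0.15, edgeR adjusted p = 0.00663). Ece2 had 401, 259 and 241 reads in the knock-out libraries against 27, 48 and 0 in the wild-type libraries (3.72 ± 1.01, adjusted p = 0.0419), a call lost without library 2, 3, 4 or 5 (largest adjusted p = 0.146), with a fold change of 4.53 without library 5. Edn2, a second endothelin gene named after its values were seen, had 0 reads in each knock-out library and 72, 80 and 97 in the wild-type libraries, at least 76.7-fold lower in the knock-out. Edn3 had 0 reads throughout. Of the 3 endothelin genes tested that are not members, 2 thus rose and 1 fell.

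Npr2 (ENSMUSG00000028469, chromosome 4, 43631935 to 43651244, plus strand) encodes the receptor of C-type natriuretic peptide and had the highest mean RPKM of the 9 genes in both genotypes. In wild-type library 5, however, Npr2 stood at 9.74 RPKM, below Adra2a (10.7), Edn1 (10.0) and Npr3 (9.81). It had 205.7, 119.9 and 127.5 CPM in the knock-out libraries, against 40.2, 38.4 and 43.0 CPM in the wild-type libraries. Knock-out library 1 was the highest, and the other knock-out libraries also lay well above the wild type. The means were 151.0 ± 47.5 CPM in the knock-out and 40.6 ± 2.34 CPM in the wild type, a 3.73-fold rise (log2 fold change 1.90 ± 0.23, edgeR adjusted p = 0.00414), and 1.60 without library 1. Junction reads numbered 6689 in the knock-out and 1888 in the wild type, and intron reads numbered 628 in the knock-out and 182 in the wild type.

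Npr3 (ENSMUSG00000022206, chromosome 15, 11839896 to 11907287, minus strand), the clearance receptor gene, had 40.3, 79.8 and 93.6 CPM in the knock-out libraries and 44.0, 75.1 and 46.2 CPM in the wild-type libraries. Library 1 lay low in the knock-out and library 5 high in the wild type, so the groups overlapped. The means were 71.2 ± 27.7 CPM in the knock-out and 55.1 ± 17.4 CPM in the wild type (log2 fold change 0.37 ± 0.36, edgeR adjusted p = 0.473). Npr3 passed without library 1 (0.64, adjusted p = 0.0459) and with the 4 libraries that remain without libraries 1 and 5 (0.93, adjusted p = 1.24e-08), which are the nearly identical pairs.

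Npr1, the receptor of atrial and B-type natriuretic peptide and the paralogue of Npr2, moved the other way. It had 1.78, 0.377 and 0.479 CPM in the knock-out libraries, against 31.3, 31.8 and 36.4 CPM in the wild-type libraries, a 36.8-fold lower level in the knock-out (log2 fold change -5.20 ± 0.57, edgeR adjusted p = 0.00332, and -6.27 without library 1). Per exon length, Npr2 exceeded Npr1 129, 355 and 297 times in the knock-out libraries and 1.43, 1.35 and 1.32 times in the wild-type libraries. The guanylate cyclase receptors thus stood close together in each wild-type library and far apart in each knock-out library. Npr2 exceeded Npr3 9.92, 2.91 and 2.64 times in the knock-out libraries and stood at 1.78, 0.992 and 1.81 times Npr3 in the wild-type libraries. Mme, neprilysin, which degrades natriuretic peptides and endothelin, had 1, 0 and 0 reads in the knock-out libraries and 21, 378 and 31 in the wild-type libraries. Its level was 397 times lower in the knock-out (counting interval 70.9 to 15720), from 1 and 430 reads. Library 5 held most of the wild-type reads, and without it the ratio was 74.6 (12.8 to 3001). The fitted log2 fold change was -8.13 (edgeR adjusted p = 0.0245), -10.03 without library 1 and -5.79 without library 5, and the call was lost without library 2 or 3 (largest adjusted p = 0.0907). Npr1 and Mme were the 2 that fell among 3 further genes of this system tested, and none rose. The ligand genes were near 0: Nppc, the C-type natriuretic peptide gene, had 1 read in the knock-out libraries together and 5 in the wild-type libraries, and Nppb, the B-type peptide gene, had 1 in the knock-out and 39 in the wild type, both named after their values were seen.

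**Figure D2:**
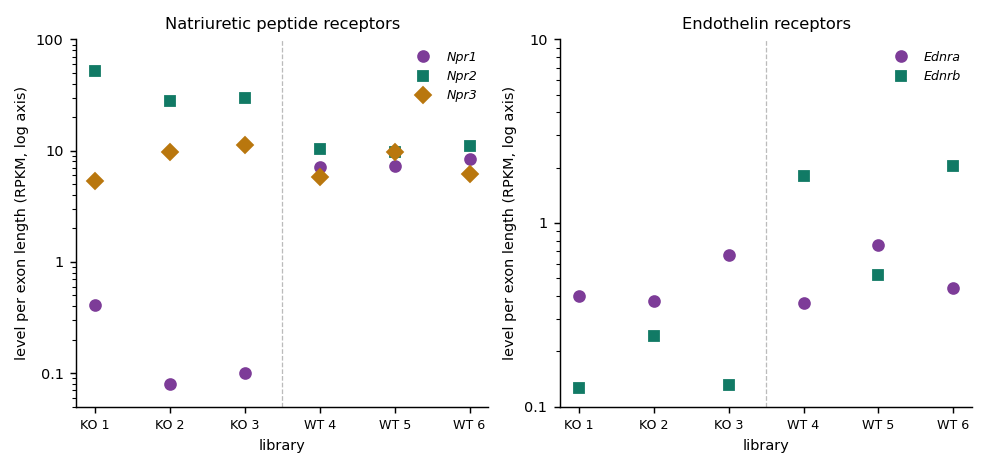
Levels per exon length (authors' RPKM, log axes) of the natriuretic peptide receptor genes and of the endothelin receptor genes in each library, knock-out left of wild type. Npr2 lies 129 to 355 times above Npr1 in the knock-out and 1.32 to 1.43 times above it in the wild type, and Ednrb lies above Ednra only in wild-type libraries 4 and 6.

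Ranked by mean RPKM, the knock-out order was Npr2 (36.9), Edn1 (12.4), Npr3 (8.77), Adra1d (7.58), Adra1b (2.43), Ednra (0.482), Ednrb (0.167), Agtr1a (0.0786) and Adra2a (0.00892). The ranges of neighbours overlapped for Edn1 and Npr3, Npr3 and Adra1d, Ednrb and Agtr1a, and Agtr1a and Adra2a. In the wild type the order was Npr2 (10.4), Edn1 (9.46), Npr3 (7.24), Adra2a (4.16), Adra1d (3.83), Ednrb (1.46), Adra1b (0.525), Ednra (0.523) and Agtr1a (0.0556). There, all neighbours overlapped except Adra1d with Ednrb and Ednra with Agtr1a. The wild-type mean of Adra2a combines 10.7 RPKM in library 5 with 0.778 and 1.04 RPKM in libraries 4 and 6.

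**Figure D3:**
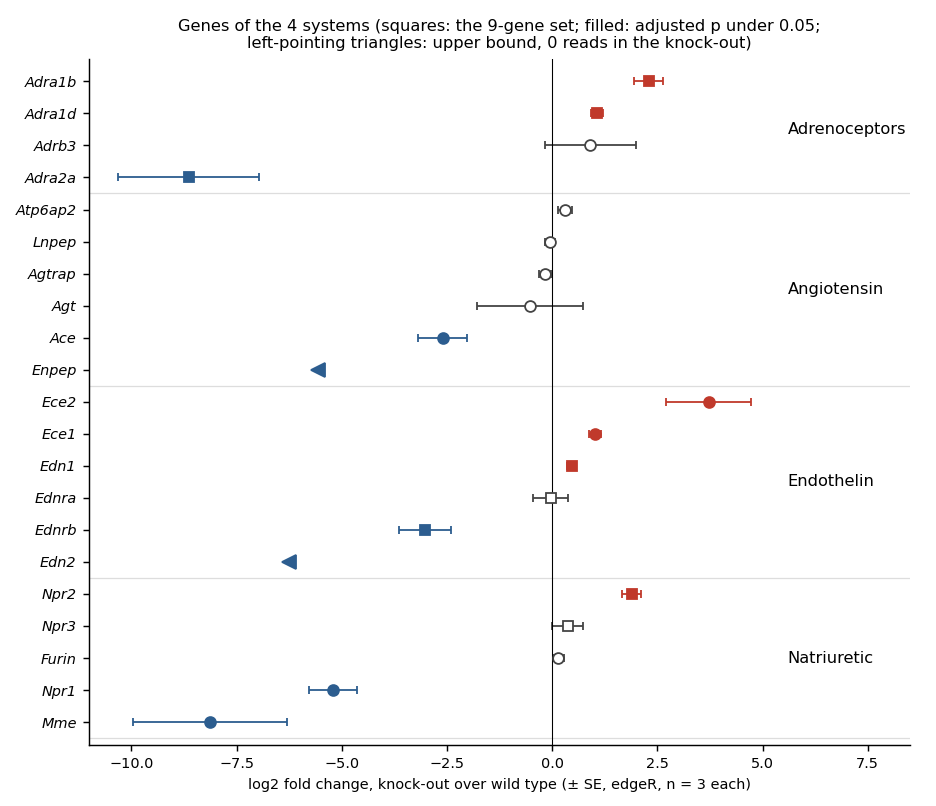
Log2 fold change, knock-out over wild type, with SE from edgeR (n = 3 each) for tested genes of the 4 systems, with triangles at the bound for Enpep and Edn2, which had 0 reads in the knock-out. Within each system some genes lie right of 0 and others left of it, as with Npr2 (1.90) and Npr1 (-5.20).

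Genes that act beside or after these receptors were counted from lists of 95 further genes, of which 62 were tested. Of these, 15 rose, 13 fell and 34 did not pass, with a median log2 fold change of 0.11. Of all tested genes, 14.1% were called higher and 13.7% lower, with a median of 0.02. The same shares stand beside the counts of each related list and marker list. Among G proteins and phospholipase C enzymes, 6 of 18 rose and 1 fell. Plcb4, a Gq-activated phospholipase C, rose (log2 fold change 3.29 ± 0.41, edgeR adjusted p = 0.0048), as did Gnao1, which encodes a Go alpha subunit (2.39 ± 0.55, 0.0257), whereas Gnai1, a Gi alpha subunit, fell (-4.87 ± 1.07, 0.0226). Among receptor kinases and arrestins, 2 of 6 rose, namely Arrb1 (1.35 ± 0.36, 0.0403) and Grk6 (0.28 ± 0.07, 0.0323). Of 8 genes of cyclic GMP signalling, 2 rose and 3 fell. Prkg2, a cyclic GMP-dependent kinase, rose (3.83 ± 0.69, 0.0129), as did Gucy1a2, a subunit of soluble guanylate cyclase (1.96 ± 0.57, 0.0493), whose genotypes overlapped. Gucy1a1, another subunit (-2.96 ± 0.53, 0.0122), and Prkg1, the kinase typical of smooth muscle (-2.85 ± 0.76, 0.0395), fell. Of 15 other vasoactive receptor genes, 2 rose and 4 fell, among them the thrombin receptor F2r (0.99 ± 0.23, 0.0271) and S1pr2 (0.58 ± 0.07, 0.0038) upward, and Ramp1, a partner of the CGRP receptor (-5.60 ± 0.52, 0.00198), and the vasopressin receptor Avpr1a (-3.00 ± 0.78, 0.0361) downward. Plcb4, S1pr2 and Ramp1 passed without each library in turn. Prkg2 and Gucy1a1 lost their calls without library 4 (0.0679 and 0.0528). Gnao1 lost its call without library 2, 3, 4 or 6 and Gnai1 without library 3, 4, 5 or 6, and Arrb1, Grk6, Gucy1a2, Prkg1, F2r and Avpr1a lost theirs without each of libraries 2 to 6. Without library 1 the log2 fold change was -7.84 for Gnai1, -6.49 for Ramp1, -4.35 for Avpr1a, -3.80 for Gucy1a1 and -3.55 for Prkg1. It was -1.86 for Prkg1 without library 5 and 4.46 for Prkg2 without library 6.

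The calls of the members rested to different degrees on the spread allowed between libraries. Adra1b, Adra1d and Npr2 passed without each library in turn, while the share of all genes called was 66.2%, 12.5% and 12.8% without knock-out library 1, 2 and 3 and 8.71%, 13% and 10.8% without wild-type library 4, 5 and 6. It was 26.7% with total counts and 28.2% in limma-voom. With libraries of one title stem summed, which leaves 2 samples a genotype and was added after seeing the data, 29% of all genes were called, and of the 6 called members all but Edn1 kept their calls. When each of the nearly identical pairs was summed, which leaves 2 samples a genotype, 0.13% of all genes were called and no member was. There, Adra1b kept its log2 fold change at 2.42 (adjusted p in edgeR = 0.135), Adra1d at 1.13 (0.134) and Npr2 at 2.04 (0.0946).

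**Figure D4:**
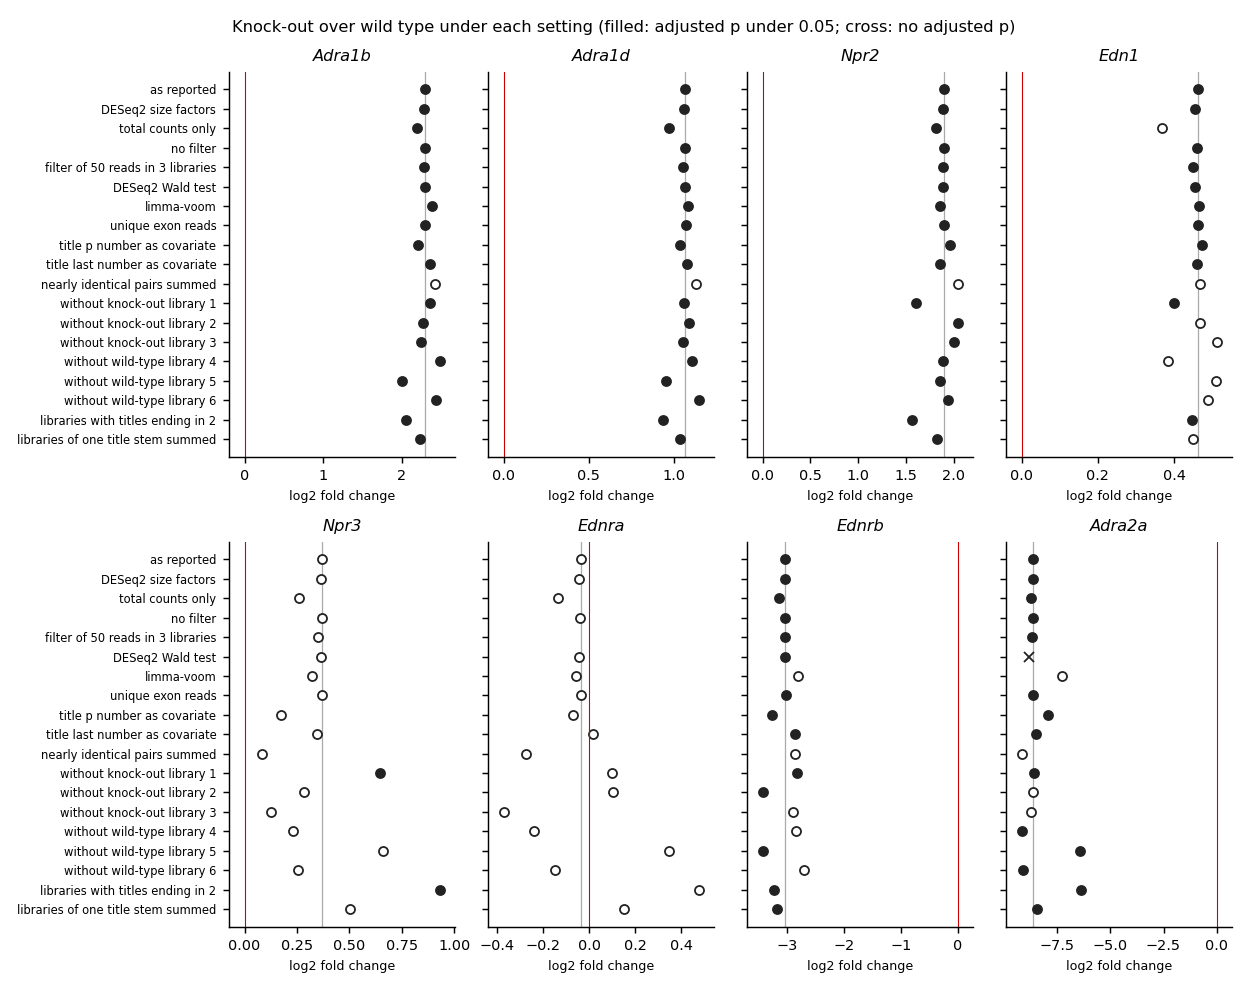
Log2 fold change, knock-out over wild type, of the 8 tested genes under the reported setting and each alternative, with filled points for an adjusted p under 0.05, a cross where no adjusted p was given, a vertical line at 0 and a grey line at the reported value. Adra1b, Adra1d and Npr2 stay right of 0 and filled in all but the summed nearly identical pairs, and Ednra lies on both sides of 0.

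The gene whose level followed each member most closely over the 6 libraries was found by Pearson's r of log2 CPM among genes with a mean of at least 50 reads. It was Cpz for Adra1b (0.998), Sorbs3 for Adra1d (0.999), Rgs8 for Adra2a (0.997), Rbm15b for Ednrb (0.993), Ero1lb for Edn1 (0.996), Peak1 for Npr2 (0.999), Fbln7 for Npr3 (0.993) and Ttc30a1 for Ednra (0.915). Such values were common, since 508, 598 and 487 genes exceeded 0.95 with Adra1b, Adra1d and Npr2, and none did with Ednra. The libraries fall into genotypes and nearly identical pairs, so these are descriptions of 6 points that are not independent.

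Sums of markers of other cell types stood apart between the genotypes for some lists and overlapped for others, such as the endothelial and leukocyte lists. The 10 mesothelial markers, of which 9 were tested and 8 fell, summed to 778 CPM in knock-out library 1, to 121 CPM in library 2 and to 116 CPM in library 3, against 3300 to 3556 CPM in the wild-type libraries. In library 1, 583 of these CPM were of Gpm6a, the tested marker that was not called, and without it the sums were 195 CPM in library 1 and 69.8 to 75.5 CPM in libraries 2 and 3, against 3077 to 3277 CPM in the wild type. Muc16, Krt8 and Krt18 were at 0 in the knock-out. Adra2a, Ednrb and Npr1 were also lower in the knock-out, as were 13.7% of all tested genes by call. Library 1, with the highest knock-out sum, had the most Npr1 of its genotype (1.78 CPM) and the least Ednrb (0.563 CPM). For Ednrb this rests on 13, 25 and 12 reads in knock-out libraries 1, 2 and 3, too few to order libraries 1 and 3. Library 5, with the lowest wild-type sum, had the most Adra2a of its genotype (54.4 CPM) and the least Ednrb (2.34 CPM). A link between these genes and the mesothelial markers was not tested. Of 8 pericyte markers, 6 were tested, 3 rose and 1 fell, with sums of 391 to 1052 CPM in the knock-out and 226 to 244 CPM in the wild type. Pdgfrb made most of each sum, at 311, 951 and 995 CPM in the knock-out and 180, 192 and 182 CPM in the wild type. Kcnj8, the marker that fell, had 1, 0 and 0 reads in knock-out cells and 30, 109 and 51 in wild-type cells. It is named after its values were seen. Of 9 fibroblast markers, all tested, 2 rose, with sums of 5434 to 10370 CPM in the knock-out and 5012 to 5247 CPM in the wild type. Of 10 smooth muscle markers, 6 were tested, 1 rose and 1 fell, with sums of 188.4 to 700 CPM in the knock-out and 137 to 208 CPM in the wild type. Acta2, not called, gave 73.8, 545.9 and 524.5 CPM of these in the knock-out and 69.2, 51.9 and 101.0 CPM in the wild type. Schwann cell and melanocyte markers, listed because that lineage uses Ednrb, summed to 27.4 to 32.4 CPM in the knock-out and 143 to 152 CPM in the wild type, with Sox10, Foxd3, Tyr and Dct at 0 throughout. Of 5 tested, 1 fell, Mbp, with 8.74, 17.5 and 15.5 CPM in the knock-out and 133.2, 126.2 and 140 CPM in the wild type, and without it the sums were 13.5 to 18.7 CPM in the knock-out and 11.5 to 17.1 CPM in the wild type. Cardiac markers summed to 11.04 to 28.2 CPM in the knock-out and 7.05 to 7.92 CPM in the wild type, with Myh6 at 0. Of 2 tested, Tnnt2 rose (log2 fold change 6.36, edgeR adjusted p = 0.00453) and Myl7 fell (-5.15, 0.00871). Leukocyte markers summed to 6.36 to 16.8 CPM in the knock-out and 4.40 to 7.0 CPM in the wild type, with Ptprc, Adgre1 and Itgam at 0. Of 3 tested, Lyz2 rose (2.57, 0.0156) and Cd68 fell (-2.33, 0.00704). The part of cell composition in the members' values was not tested.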

How the data were processed

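The authors deposited, for each gene and library, whole-number exon read counts, junction and intron read counts and an RPKM value (reads scaled by exon length and depth), per the file headers. Per the labels' protocols, 1 ug of total RNA went into each stranded poly(A) library. Per the submitters' processing notes, the build was GRCm38 (mm10). Which aligner and counter were used, and whether strand was, is not given in the sources used here. The spans of Adra1d, Npr2, Ednra, Edn1 and Npr3 overlap annotated genes on the opposite strand, and that of Agtr1a a gene within its intron. Reads in the shared bases may therefore not be told apart. Whether exons are shared was not examined.

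The test on exon counts used edgeR 4.0.16 (R 4.3.3) (filterByExpr, minimum count 10, TMM, quasi-likelihood F test, Benjamini-Hochberg adjustment at 0.05). The SE is the log2 fold change divided by the square root of F. RPKM served only to compare genes. Alternatives used DESeq2 1.42.0, limma-voom (limma 3.58.1), other scaling and filters, title numbers as covariates, summed pairs, summed title stems and each library left out. The edgeR steps were tested on simulated data with independent libraries of equal spread. That check does not cover the nearly identical pairs and the distant library 1 of these data. Plots used matplotlib 3.10.9 in Python 3.11.15. Members and lists were chosen with earlier results of these data known. Named genes are the members, Nt5e, up to 2 rises and 2 falls per related list at a mean of at least 50 reads, the closest gene per member, marker genes, and paralogues at 0 reads. Some genes of the related lists are not reported here by name.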

Additional observations from a re-analysis of the deposited data

How the results depend on the processing

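Over all genes, 3524 were called, 17 with the nearly identical pairs summed, between 1120 and 8486 with 1 library left out, and 9286 in the libraries with titles ending in 2, a setting chosen after seeing the data. The members called higher numbered 4, and 0 with the pairs summed. They numbered 3 with total counts as the scaling and with libraries of one title stem summed. With 1 library left out, between 3 and 5 members were called higher, and 5 were in the libraries with titles ending in 2. Those called lower numbered 2, and 1 in DESeq2, which gave no adjusted p for Adra2a, 0 in limma-voom, 0 with the pairs summed and between 0 and 2 with 1 library left out. The related genes called numbered 28, and 0 with the pairs summed, between 9 and 47 with 1 library left out and 51 in the libraries with titles ending in 2. The log2 fold change of Ednra was -0.04 and changed sign with the last title number as a covariate (0.015), without knock-out library 1 (0.10) or 2 (0.10), without wild-type library 5 (0.35) with libraries of one title stem summed (0.15), also chosen after seeing the data, and in the libraries with titles ending in 2 (0.48), with a range from -0.37 to 0.35 when 1 library was left out. No cause was tested for these shifts. Where libraries were summed or left out, the number of samples was also smaller. The replicate numbers differ between the genotypes, but their titles share a p number and a last number. With these as covariates, 3122 and 4510 genes were called, and in both fits 4 members were called higher and 2 lower. With total counts as the scaling, the median log2 fold change of all genes was -0.08, against 0.02, and 40.1% of calls were higher, against 50.7%; the calls of the members kept their direction, and that of Edn1 was lost. Depth limits Agtr1a, Adra2a in the knock-out and Ednrb in the knock-out, which had 15, 3 and 50 reads in all.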

Other observations

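Among vasoactive receptor genes, several had most of their knock-out reads in library 1 alone, a pattern chosen after the values were seen. Oxtr, the oxytocin receptor gene, had 66, 2 and 2 reads in the knock-out libraries and 7, 4 and 5 in the wild-type libraries. Htr1b, a serotonin receptor gene, had 22, 0 and 0 reads in knock-out cells and 1, 1 and 1 in wild-type cells. The sphingosine-1-phosphate receptor gene S1pr3 ran the other way, with 65, 1078 and 927 reads in knock-out cells and 371, 285 and 318 in wild-type cells, and F2rl1, a protease-activated receptor gene, had 553, 95 and 68 reads in knock-out cells and 512, 686 and 555 in wild-type cells. In the wild type, Agt, the angiotensinogen gene, stood out in library 5 as Adra2a did, with 19, 487 and 518 reads in knock-out cells and 144, 1373 and 234 in wild-type cells.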
